A study of Mus musculus with 8 samples.

Results

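The genes examined here encode cadherin adhesion proteins of the mouse cerebral cortex and their partners: the numbered cadherins (Cdh), the nonclustered protocadherins (Pcdh) and the catenins that bind cadherin tails. Members were the protein-coding genes of the deposited count table whose symbol was Cdh or Pcdh followed by a number only, together with Ctnna1, Ctnna2, Ctnna3, Ctnnb1, Ctnnd1 and Ctnnd2, which gave 40 of 55416 genes. The mRNA sequencing libraries of mouse cortex were 4 labelled AGO2_L192P/+ (here L192P) and 4 labelled wild type (WT). L192P animals carried on 1 allele a leucine-to-proline exchange in Ago2, the Argonaute protein that holds microRNAs (miRNAs) and brings them to target mRNAs. The line was made by CRISPR editing of C57BL/6JUke embryos and was kept by mating heterozygotes to WT animals, so animals of both groups carried at least 1 WT Ago2 allele. The labels give neither the age nor the sex of the animals, nor do they say whether numbered libraries of a genotype came from separate animals, and p-values measure the spread between these libraries. Which genes of the cortical transcriptome differ between heterozygous and WT animals is the question that the comparison addresses.

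Cadherins are membrane proteins whose extracellular repeats bind cadherins of like type on the next cell in the presence of calcium. Type I and type II cadherins carry a tail that holds p120-family catenins near the membrane and beta-catenin further out, and alpha-catenins join this complex to actin. Beta-catenin has a separate role as a transcriptional coactivator of Wnt signalling, and the nonclustered protocadherins have other tails, of which the delta-2 group recruits actin regulators of the WAVE complex. In the cortex these genes are known for the sorting of layers and axon tracts and for the growth and upkeep of synapses.

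Deposited totals ran from 20396357 counts (L192P replicate 4) to 43575900 counts (WT replicate 2), and values below are normalized counts, that is counts divided by a DESeq2 size factor for each library. Replicate 1 of both genotypes stood apart: Xist, the RNA of the inactive X chromosome, was at 0.93 and 1.82 normalized counts there and at 5185 to 7257 in the other 6 libraries. Raw counts summed over chromosome Y were 3547 (L192P) and 3534 (WT) in replicate 1 and 186 to 573 in the other 6. By these 2 signals replicate 1 was male in both genotypes and the other 6 libraries were female. The summed signal of 8 marker genes of cortical excitatory neurons, the cell type that defines this tissue, was at 40502 to 45863 in L192P and at 46354 to 48308 in WT libraries. Of the marker lists for other cells and regions, that of meningeal fibroblasts had 2 of 6 genes higher in L192P (sums of 1086 to 1919 against 863 to 1247) and that of striatum 1 of 7 lower (21281 to 26610 against 27120 to 32758). Sums for thalamus, with 1 of 6 genes higher, were 1955 to 5107 against 1808 to 2399, and those for hypothalamus, with 2 of 8 higher, 218 to 1254 against 119 to 259. GABAergic neurons and olfactory bulb had 1 gene higher each, and the other 10 of 16 marker lists had none called. A fit with the replicate number as a block called 4.25% of all genes tested. It called 3 of 8 excitatory neuron markers and 4 of 7 striatal markers, all lower in L192P. It also called 3 of 6 meningeal and 2 of 8 hypothalamic markers, all higher in L192P. The 2 of 6 GABAergic markers called went opposite ways, Gad2 higher and Pvalb lower (log2 fold changes of 0.35 and -0.22). Microglia, endothelial cells and thalamus had 1 each, also higher, and the other lists none. The part of these shifts in the values below was not tested. In such tissue libraries fewer cells of a type and less RNA per cell cannot be told apart.

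Beta-catenin was the most abundant mRNA of the system. Per kilobase of exon, Ctnnb1 stood first at a mean of 1052 normalized counts over the 8 libraries, followed by Ctnnd2 (delta-catenin, the p120-family member of neurons) at 534, Pcdh1 at 484 and Ctnna2 (the neuronal alpha-catenin) at 447. Cdh2, which encodes N-cadherin, was the most abundant classical cadherin at 238 per kilobase, above Cdh22 at 179 and Cdh4 at 87.9. At the other end were Cdh23 at 1.35, Pcdh12 at 0.97, Cdh26 at 0.62 and Cdh17 at 0.24 per kilobase, and Cdh16, known as the kidney cadherin, had no count in any library. Cdh16, Cdh17, Cdh26 and Pcdh12 were the 4 members with a mean under 10 normalized counts.

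**Figure D1:**
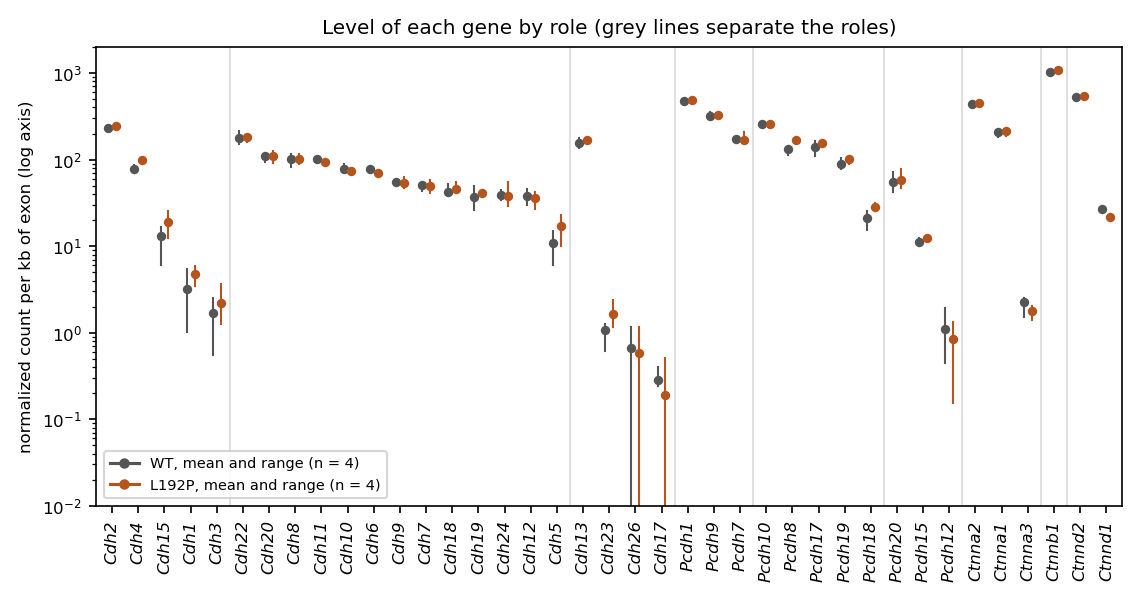
Normalized counts per kilobase of exon on a log axis for the members with counts, ordered by role and level, with the mean (point) and the lowest to highest library (bar) of 4 WT and 4 L192P libraries. Ctnnb1 lies at the top, levels span over 1000-fold, bars of Cdh26 and Cdh17 that run to the lower edge include libraries at 0, and Cdh16, at 0 in every library, is not drawn.

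L192P cortex held more mRNA of a classical cadherin, Cdh4, and of a delta-2 protocadherin, Pcdh8, than WT cortex, and no member was called lower. With DESeq2 and a Benjamini-Hochberg adjusted p under 0.05 over all genes, 37 members received an adjusted p and 2 of them were called, both higher, which is 5.41% against 1.36% of the 18627 genes tested (0.789% higher and 0.569% lower). Cdh4 had already been named by the study as raised in these data. The shares of members here and in the next paragraph were thus in part known beforehand. With the replicate block the same 2 of 31 members with an adjusted p were called, where 4.25% of all genes tested were. In replicates 2 to 4 alone Pcdh19 joined them, which made 3 of 32 members, where 3.46% of all genes were called. edgeR and limma-voom called 0 members at the adjusted threshold, where they called 0.326% and 0.266% of all genes. In each, 4 members had an unadjusted p under 0.05, a limit at which the share of all genes was not taken for these 2 methods. Differences were small: among the 36 members with a mean of at least 10 normalized counts the median log2 fold change, L192P over WT, was 0.04, against 0.0014 for all 17145 genes at that level. Of those 36, 25 lay above 0 and 11 below, or 69.4% above 0 against 50.5% of all genes. For 24 of the 26 uncalled members with a mean of at least 200 normalized counts, the 95% interval of the log2 fold change lay within 0.5 of 0.

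Groups without overlap between genotypes were seen for 4 of the 37 tested members, or 10.8%, against 5.97% of all genes tested (3.01% higher and 2.96% lower in L192P). These were Cdh4, Pcdh8 and Pcdh18 in the higher direction and Ctnnd1 in the lower. An unadjusted DESeq2 p under 0.05 was found for 5 members (13.5%, against 9.44% of all genes), namely these 4 and Cdh5.

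**Figure D2:**
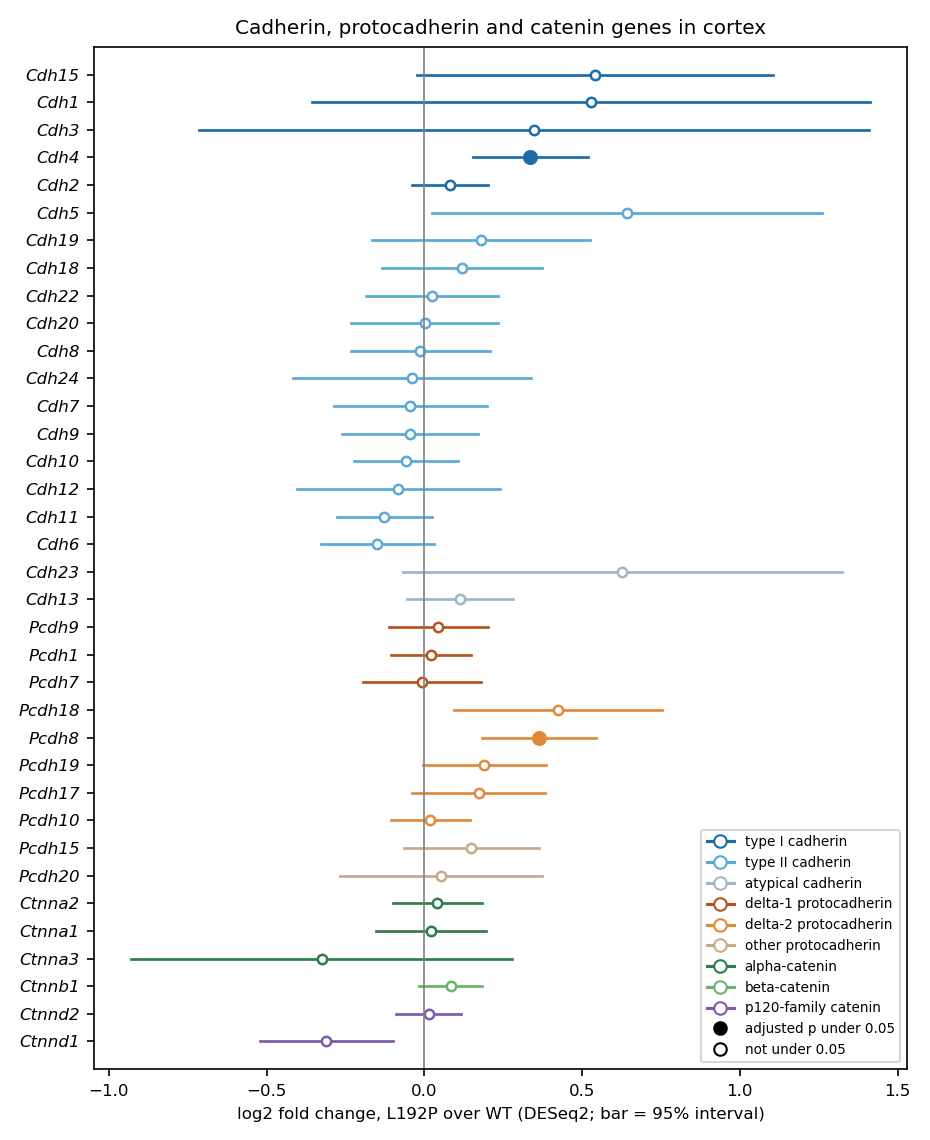
Log2 fold change, L192P over WT, with 95% interval (DESeq2) for the 36 members with a mean of at least 10 normalized counts, grouped by role from type I cadherins at the top to p120-family catenins at the bottom. Filled points mark Cdh4 and Pcdh8, and the bars of Cdh5 and Pcdh18 above 0 and of Ctnnd1 below 0 also leave out 0 without passing the adjusted threshold.

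Cdh4 encodes R-cadherin, a type I cadherin first studied in retina that can also pair with N-cadherin. The gene spans chr2:179084201-179541166 on the plus strand (GRCm39). It is shown with miR-5121 because the study names this miRNA beside Cdh4, and the 3′ UTR of its canonical transcript holds 1 match to the miR-5121 seed, at chr2:179538677-179538683, which is bases 966 to 972 of 3455. The mature miRNA (RefSeq, minus strand of chr7:45126925-45126945 in GRCm38.p6) is given 5′ to 3′ with its seed, bases 2 to 8, in capitals, and the UTR stretch with the 7 bases complementary to that seed in capitals.
mmu-miR-5121: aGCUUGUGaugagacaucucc
Cdh4 3′ UTR: gcatagcaatCACAAGCtcccctcaat

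The letters CACAAGC occurred in 9.59% of the 20752 3′ UTRs searched on the sense strand, and in 21.1% of the 2332 UTRs within 0.8 to 1.2 times the length of that of Cdh4. Among members, 7 of 38 UTRs held them (Cdh4, Cdh24, Ctnna3, Ctnnd1, Pcdh7, Pcdh10 and Pcdh20), with a median UTR length of 1673.5 bases for members and 1089 for all. A match describes these letters only. Of these 7 genes, Cdh4 was the one called. The study arrived at Cdh4 by intersecting predicted miRNA targets with the mRNAs raised in its L192P cortex data. That Cdh4 has both a match and a call thus follows from how it was chosen.

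In the L192P libraries Cdh4 was at 662, 696, 756 and 741 normalized counts in replicates 1 to 4. WT libraries had 634, 530, 511 and 589. Every L192P library thus lay above every WT library, and the gap was narrowest in replicate 1, where the log2 ratio was 0.06, against 0.39, 0.57 and 0.33 in the other 3 same-numbered pairs. Means were 714.2 ± 42.9 and 565.8 ± 56.3 (SD, n = 4 each), or 26.2% more in L192P, with a log2 fold change of 0.34 (SE 0.09, 95% interval 0.15 to 0.52). The DESeq2 adjusted p was 0.0293, and with the replicate number as a block it was 0.0279. Without the replicate 1 pair the log2 fold change was 0.43 with a DESeq2 adjusted p of 0.0025.

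Precision at this sample size was limited, since leaving out any 1 library of replicates 2 to 4, from either genotype, ended the DESeq2 call of Cdh4 (adjusted p of 0.101 to 0.227), with log2 fold changes of 0.29 to 0.40 over all 8 such fits. The adjusted p was 0.117 with edgeR and 0.135 with limma-voom.

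Against N-cadherin, its partner in mixed pairs, Cdh4 mRNA also took a larger share. It made up 28.7 ± 1.58% of the summed Cdh4 and Cdh2 level per kilobase in L192P and 25.1 ± 1.19% in WT libraries (SD, n = 4 each), with ranges of 26.54 to 30.3% and 23.7 to 26.48% that do not overlap by a narrow margin. Cdh2 itself was at 2183, 2007, 2074 and 2205 normalized counts in L192P and at 2095, 1925, 1958 and 2040 in WT. These values overlapped between genotypes, although the L192P library was the higher of each same-numbered pair, and the log2 fold change was 0.08 (95% interval -0.04 to 0.20, DESeq2 adjusted p = 0.789).

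The other 3 type I cadherins were scarce and were not called. Cdh15 (M-cadherin, known from muscle) had means of 98.4 ± 30.4 in L192P and 67.1 ± 24.5 in WT (SD, n = 4 each), with a log2 fold change of 0.54 (95% interval -0.02 to 1.11, DESeq2 adjusted p = 0.562). Cdh1 (E-cadherin) and Cdh3 (P-cadherin), both best known from epithelia, had group means between 11.1 and 22.2 normalized counts and intervals that reached 1.41 on the log2 scale. All 5 type I log2 fold changes lay above 0, with a median of 0.35.

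Pcdh8, or arcadlin, is a delta-2 protocadherin known from neurons as a gene induced by activity whose protein promotes the uptake of N-cadherin from synapses. The gene lies at chr14:80004215-80008752 on the minus strand (GRCm39), and its canonical 3′ UTR holds no miR-5121 seed match. In L192P replicates 1 to 4 it was at 755, 758, 828 and 720 normalized counts. The WT libraries had 607, 603, 656 and 512. Again every L192P library exceeded every WT library, and the log2 ratios within same-numbered pairs were close to each other for 3 pairs, at 0.31, 0.33 and 0.34, and 0.49 for the fourth.

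Pcdh8 means were 765.1 ± 45.2 in L192P and 594.5 ± 60.3 in WT (SD, n = 4 each), 28.6% more in L192P, with a log2 fold change of 0.36 (SE 0.09, 95% interval 0.18 to 0.54) and a DESeq2 adjusted p of 0.0119. With the replicate block the DESeq2 adjusted p was 0.00276. The call ended when replicate 2 of either genotype, replicate 3 of L192P or replicate 4 of WT was left out (DESeq2 adjusted p of 0.0637 to 0.116), with edgeR (0.0876) and with limma-voom (0.108), while the log2 fold change stayed between 0.30 and 0.41. The opposite-strand gene 4930452G13Rik, which shares exon positions with Pcdh8, was at 20.4 to 39.2 normalized counts in L192P and 26.1 to 37.5 in WT, and the strand setting of the authors' counting is not given in the sources used here.

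**Figure D3:**
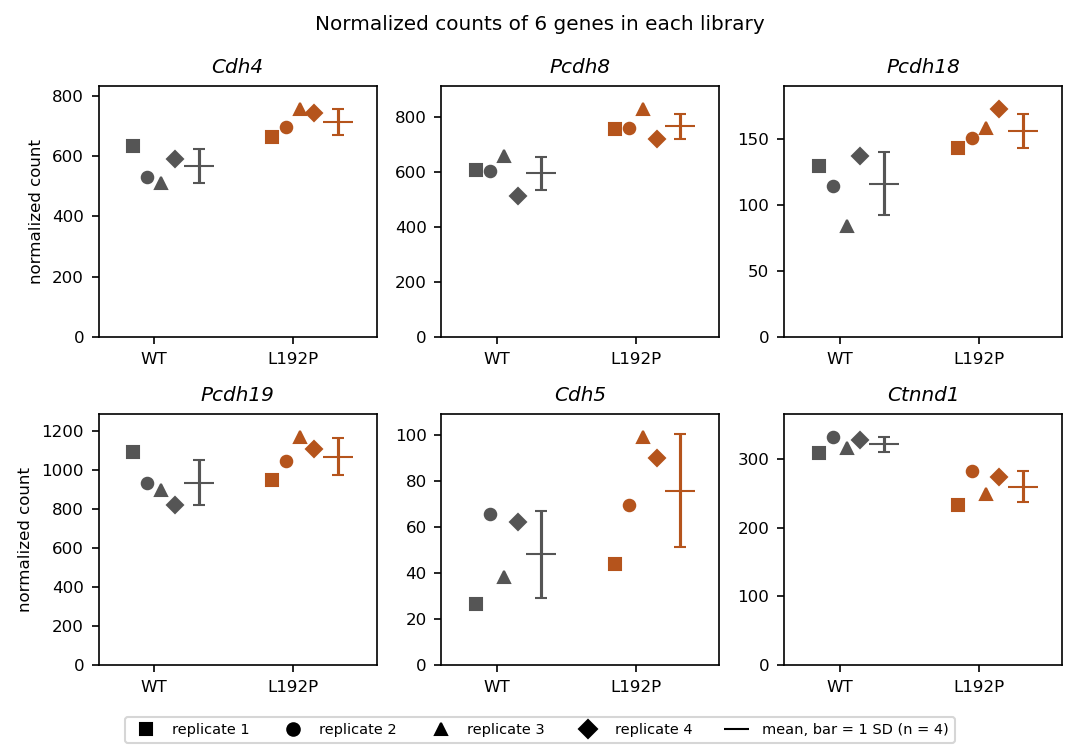
Normalized counts of 6 genes in each library, WT in grey and L192P in orange, with the replicate number as the symbol and the mean and 1 SD (n = 4) beside the points; each axis starts at 0. Cdh4, Pcdh8 and Pcdh18 lie higher in all 4 L192P libraries than in any WT library, Ctnnd1 lies lower in all 4, and Pcdh19 and Cdh5 overlap.

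The other delta-2 protocadherins were also above 0 in log2 fold change but were not called. Pcdh18 was at 143, 150, 158 and 172 normalized counts in L192P and at 129, 114, 83.6 and 137 in WT. The groups did not overlap, with WT replicate 3 the lowest library by a wide gap, and the log2 fold change was 0.42 (SE 0.17, 95% interval 0.10 to 0.75) at a DESeq2 adjusted p of 0.269. Leaving out WT replicate 3 gave a log2 fold change of 0.30.

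Pcdh19, an X-linked gene known from a form of epilepsy in girls, falls outside the rule for named genes and was picked after its values were seen. It was at 947, 1042, 1169 and 1107 normalized counts in L192P and at 1089, 930, 896 and 818 in WT, where replicate 1 was the highest WT and the lowest L192P library. Over all libraries the log2 fold change was 0.19 (95% interval -0.01 to 0.38, DESeq2 adjusted p = 0.55), and in replicates 2 to 4 of both genotypes it was 0.32 with a DESeq2 adjusted p of 0.0157. Replicate 1 of both genotypes is the pair that was male by Xist and chromosome Y signal, and the part of that difference in the value was not tested.

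Pcdh10, the most abundant delta-2 member per kilobase, was at 4735, 4290, 4328 and 4809 normalized counts in L192P and at 4424, 4285, 4436 and 4789 in WT. The groups overlapped, with a log2 fold change of 0.02 and a 95% interval of -0.11 to 0.14 (DESeq2 adjusted p = 0.985). Its UTR is among the 7 with a miR-5121 seed match. Pcdh17, which takes part in the sorting of axons, had a log2 fold change of 0.17 (95% interval -0.04 to 0.38, DESeq2 adjusted p = 0.679) and was higher in L192P in 4 of 4 same-numbered pairs. Within the group Pcdh8 took 23.6 ± 1.66% of the summed level per kilobase in L192P and 20.6 ± 2.09% in WT (SD, n = 4 each), and these shares overlapped.

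The 3 delta-1 protocadherins among the members, which are abundant in cortical neurons, were close to equal between genotypes. Pcdh1 was at 4254, 4101, 4656 and 4378 normalized counts in L192P and at 3933, 4353, 4465 and 4392 in WT, with a log2 fold change of 0.02 (95% interval -0.11 to 0.15, DESeq2 adjusted p = 0.984). Log2 fold changes of Pcdh9 (0.04) and Pcdh7 (-0.01) had intervals within 0.20 of 0. Pcdh11x, kept out of the members by the letter that ends its symbol, was counted among the partner genes below. It was at 422 to 468 normalized counts in L192P and at 349 to 461 in WT. These values overlapped, and the log2 fold change was 0.21 (DESeq2 unadjusted p = 0.0485, adjusted p = 0.521). Pcdh20 varied widely inside each genotype, at 604, 653, 994 and 726 normalized counts in L192P and 719, 690, 922 and 537 in WT, where replicate 3 was the highest library of both. Its log2 fold change was 0.05 (95% interval -0.27 to 0.37, DESeq2 adjusted p = 0.984).

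Type II cadherins, which mark layers, areas and nuclei of the brain in combination, made up the largest role with 13 genes, and none was called. Their log2 fold changes ran from -0.15 (Cdh6) to 0.64 (Cdh5) with a median of -0.04, 5 above 0 and 8 below. Cdh22, the most abundant per kilobase, was at 1098, 1317, 1193 and 1326 normalized counts in L192P and at 1024, 1444, 1147 and 1227 in WT. WT values enclosed all those of L192P, and the log2 fold change was 0.02 (95% interval -0.18 to 0.23, DESeq2 adjusted p = 0.988). Cdh6 and Cdh11 were the lower of each same-numbered pair in L192P in 4 of 4 pairs, with log2 fold changes of -0.15 (95% interval -0.33 to 0.03, DESeq2 adjusted p = 0.671) and -0.13 (95% interval -0.28 to 0.02, DESeq2 adjusted p = 0.657).

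Cdh5 encodes VE-cadherin, the adhesion protein of endothelial junctions, and was the member with the highest log2 fold change. In L192P it was at 43.9, 69.4, 99.2 and 89.8 normalized counts and in WT at 26.4, 65.5, 38.0 and 62.0, lowest in replicate 1 of both genotypes and higher in L192P in 4 of 4 same-numbered pairs. Groups overlapped, and the log2 fold change of 0.64 (SE 0.32, 95% interval 0.02 to 1.26) had a DESeq2 adjusted p of 0.495. The summed signal of 8 endothelial markers was 448, 1038, 1325 and 1351 in L192P and 524, 1020, 742 and 1200 in WT, also lowest in replicate 1. Of these markers 0 of 8 were called with genotype only and 1 of 8 with the replicate block. The part of vessel content in the Cdh5 value was not tested. Pcdh12, the other member known from endothelium, was at 0.93, 7.97, 8.07 and 3.59 normalized counts in L192P and at 2.73, 6.78, 5.43 and 11.7 in WT. It too was lowest in replicate 1 of both genotypes, but it was higher in L192P in 2 pairs and lower in 2, with a log2 fold change of -0.38 (95% interval -1.86 to 1.10, DESeq2 adjusted p = 0.961).

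Among atypical cadherins, which lack the catenin-binding tail, Cdh13 (T-cadherin, held by a lipid anchor) was the only abundant gene. Its values were 1904, 2050, 1754 and 2020 normalized counts in L192P and 2037, 1744, 1589 and 1774 in WT, overlapping between genotypes, with a log2 fold change of 0.11 (95% interval -0.06 to 0.28, DESeq2 adjusted p = 0.786). Cdh23 and Pcdh15, partners in the tip link of inner-ear hair cells, had log2 fold changes of 0.63 (95% interval -0.07 to 1.32, DESeq2 adjusted p = 0.614) and 0.15 (95% interval -0.07 to 0.36, DESeq2 adjusted p = 0.772).

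Ctnnd1 was the member with the lowest DESeq2 p in the lower direction. It encodes p120-catenin, which binds the membrane-near tail of cadherins and slows their removal from the surface. It lies at chr2:84425959-84489326 on the minus strand (GRCm39). Its 3′ UTR of 7277 bases holds 1 seed match each for miR-5121, at chr2:84427241-84427247 (bases 5989 to 5995), and for miR-92a-3p, at chr2:84431738-84431744 (bases 1492 to 1498). The latter miRNA belongs to the seed family that the study's main text names for lowered genes. The caption of the figure panel cited there names a different miRNA, whose seed was not searched here. Capitals mark the seed in the miRNA (RefSeq) and the matching bases in the UTR, all 5′ to 3′.
mmu-miR-92a-3p: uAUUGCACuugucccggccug
Ctnnd1 3′ UTR, miR-5121 match: aagatgttggCACAAGCacggactata
Ctnnd1 3′ UTR, miR-92a-3p match: tactatgtggGTGCAATtttttttaaa

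Of 482 UTRs of like length, 35.3% held CACAAGC and 24.5% held GTGCAAT, the latter against 6.94% of all UTRs. Other members with GTGCAAT were Cdh10, Ctnna3, Pcdh7 and Pcdh9, with log2 fold changes of -0.06, -0.33, -0.01 and 0.04, and none of the 5 was called.

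Ctnnd1 was at 234, 282, 249 and 274 normalized counts in L192P and at 309, 333, 316 and 328 in WT. Every L192P library lay below every WT library, and the same-numbered pairs had log2 ratios of -0.40, -0.24, -0.34 and -0.26. Means were 259.8 ± 22.5 and 321.3 ± 10.9 (SD, n = 4 each), with a log2 fold change of -0.31 (SE 0.11, 95% interval -0.52 to -0.10). The unadjusted p was 0.00381 and the DESeq2 adjusted p 0.148, which misses the threshold, and over 16 alternative fits the adjusted p lay between 0.127 and 0.492. By level per kilobase Ctnnd1 made up 3.91 ± 0.29% of the p120-family pair in L192P and 4.83 ± 0.09% in WT (SD, n = 4 each), with ranges of 3.49 to 4.14% and 4.75 to 4.96% that do not overlap.

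Ctnnd2, which supplied the rest of that pair, was at 5955, 6021, 5576 and 5989 normalized counts in L192P and at 5617, 5876, 5774 and 6061 in WT. The groups overlapped, and the log2 fold change of 0.01 had a 95% interval of -0.09 to 0.12 (DESeq2 adjusted p = 0.986).

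Ctnnb1 was at 8649, 9280, 9026 and 8417 normalized counts in L192P and at 8179, 8341, 8305 and 8552 in WT. Only L192P replicate 4 fell inside the WT range, and the log2 fold change of 0.08 (95% interval -0.02 to 0.18) had a DESeq2 adjusted p of 0.661. A two-sided exact permutation test of the 4 against 4 normalized counts gave an unadjusted p = 0.0571. The smallest value this design can give is 0.0286, which Cdh4, Pcdh8, Pcdh18 and Ctnnd1 reached. The share of all genes at 0.0571 or below was not taken.

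No alpha-catenin was called. Ctnna1 was at 1699, 2083, 1998 and 1929 normalized counts in L192P and at 1673, 1802, 2045 and 2080 in WT, and the log2 fold change was 0.02 (95% interval -0.15 to 0.20, DESeq2 adjusted p = 0.987). Ctnna2 was at 3686, 3244, 3224 and 3694 in L192P and at 3295, 3138, 3427 and 3604 in WT, with a log2 fold change of 0.04 (95% interval -0.10 to 0.18, DESeq2 adjusted p = 0.953). Ctnna2 took 67.9 ± 3.30% of the alpha-catenin level per kilobase in L192P and 67.7 ± 1.51% in WT (SD, n = 4 each), and these shares overlapped. Ctnna3, known from heart muscle, was rare at 31.8, 21.6, 28.8 and 26.4 normalized counts in L192P and 38.2, 23.7, 39.1 and 37.5 in WT, lower in L192P in 4 of 4 pairs, with a log2 fold change of -0.33 and a wide 95% interval of -0.93 to 0.28 (DESeq2 adjusted p = 0.864).

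None of the listed genes that work with this system was called. Over 6 lists, 84 partner genes received an adjusted p and DESeq2 called 0, where it called 1.36% of all genes tested, and 6 of the 84 (7.14%) had an unadjusted p under 0.05, against 9.44% of all genes. edgeR and limma-voom also called 0 partners, with 6 each at an unadjusted p under 0.05, where the share of all genes was not taken. The lists were other cadherin-superfamily genes (20 tested), junction plaque and catenin partners (17), beta-catenin turnover (12), beta-catenin transcription and targets (17), cadherin cleavage (7) and the WAVE complex (11). No gene of the plaque, turnover, cleavage or WAVE lists had an unadjusted p under 0.05, and the medians of the log2 fold change in the 6 lists ran from -0.01 to 0.09.

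Of those lists, 3 genes were picked after their values were seen because 1 or more alternative fits called them. Cdhr1, a photoreceptor cadherin also found in olfactory bulb, had the lowest p of the lists and was at 315, 214, 333 and 188 normalized counts in L192P and at 139, 184, 141 and 222 in WT. Its values overlapped between genotypes, and the log2 fold change of 0.61 (SE 0.20) had a DESeq2 adjusted p of 0.111. The call was made without L192P replicate 4 and without WT replicate 4.

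Ret, the cadherin-repeat receptor of glial-derived growth factors, was at 150, 167, 409 and 133 normalized counts in L192P and at 124, 98.9, 135 and 91.3 in WT. L192P replicate 3 stood far above the other 7 libraries, and the log2 fold change of 0.94 had a DESeq2 adjusted p of 0.372, which became 0.00762 with the replicate block. Tcf7l2, a DNA-binding partner of beta-catenin that is also a thalamic marker, was at 620, 251, 1070 and 190 normalized counts in L192P and at 157, 207, 221 and 162 in WT. L192P replicates 1 and 3 were the high libraries, and the log2 fold change of 1.52 had a DESeq2 adjusted p of 0.204. The part of the thalamic marker signal in this value was not tested.

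**Figure D4:**
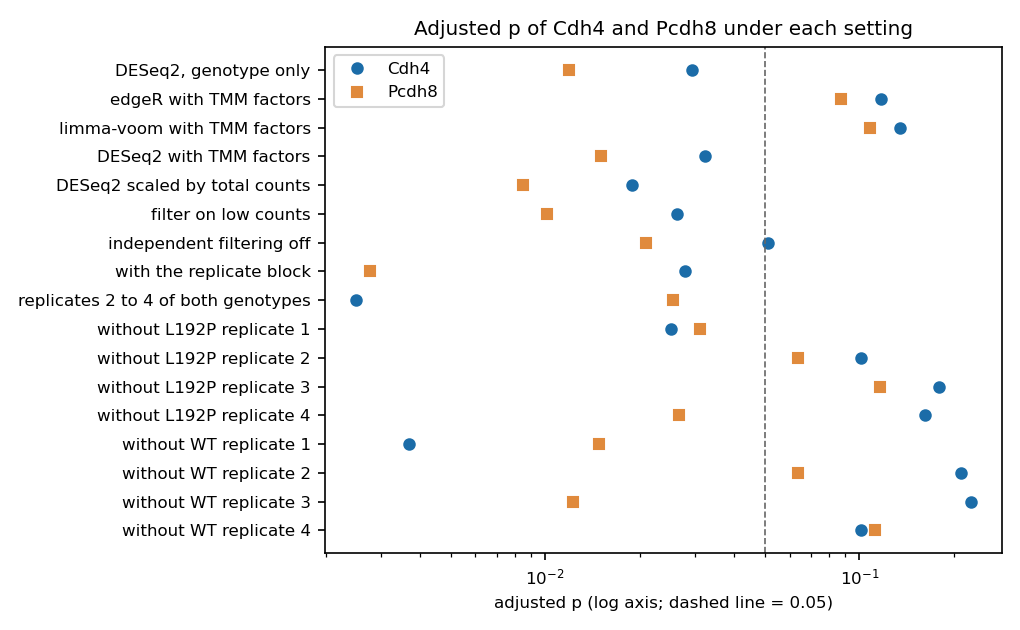
Adjusted p (log axis) of Cdh4 (circles) and Pcdh8 (squares) under the genotype-only DESeq2 fit and 16 other settings, with the dashed line at 0.05. Pcdh8 stays under 0.05 in 10 of the 16 other settings and Cdh4 in 7, and both lie above it with edgeR and limma-voom.

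The spread within a genotype set what could be seen. Among the 28 members with a mean of at least 200 normalized counts, the coefficient of variation between libraries had a median of 7.88% in L192P and 9.87% in WT, from 1.86% for Ctnnb1 in WT to 27.2% for Cdh19 in WT. For members with under 100 normalized counts, such as Cdh1, Cdh3, Cdh5, Cdh15, Cdh23 and Ctnna3, the 95% intervals left room for changes of over 0.5 on the log2 scale.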

How the data were processed

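Libraries of polyadenylated RNA from mouse cortex were made by the authors with a stranded mRNA kit. Per the labels, reads were aligned with STAR 2.7.9a to GRCm39 and counted per gene with featureCounts 1.5.1. The strand setting and the annotation release are not given in the sources used here. The authors deposited raw counts per library and a table of normalized signal, which equals the counts divided by DESeq2 size factors (largest difference 2.9e-10). All tests here used the counts, of which libraries held 20396357 to 43575900.

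DESeq2 1.42.0 in R 4.3.3 was fitted to the whole table of 55416 genes with genotype as the only term, independent filtering at 0.05 and Benjamini-Hochberg adjustment, with no fold limit, after the methods of the study. Genes with an adjusted p numbered 18627. Independent filtering set aside 14037 genes and the Cook filter 12. Intervals are 1.96 SE to each side. Levels per kilobase used the merged exon length of GENCODE M39, where 98.8% of gene identifiers and all 40 members were found; 3′ UTRs were those of canonical transcripts.

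Replicate numbers come from the labels. Deviations from the group means over 13422 genes with a mean of at least 50 correlated at 0.63, 0.38, 0.23 and 0.33 between same-numbered libraries and at -0.38 to 0.14 otherwise, so the numbers were taken as pairs. The block is given for called members, for partner genes whose call it changed, and for marker lists as a count of genes called. Other DESeq2 values are from the fit with genotype only unless stated. With the block 7 members had an unadjusted DESeq2 p under 0.05, against 5 with genotype only. The share of all genes at that limit was not taken for the block. No libraries of a genotype agreed within sampling noise.

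Alternatives were edgeR 4.0.16 (quasi-likelihood) and limma 3.58.1 (voom) with TMM factors, TMM or total-count scaling in DESeq2, removal of genes without 10 counts or more in 4 libraries or more, no independent filtering, the replicate block, replicates 2 to 4 only, and leaving out each library. In simulated counts for 55416 genes with 200 changed by 1 on the log2 scale, DESeq2 recovered 94.0% with 8.74% false calls, against 92.5% and 3.65% for edgeR and 91.5% and 3.68% for limma-voom. DESeq2 with the replicate block recovered 90.0% with 10.4% false calls. The changed genes had means of at least 50, and counts were drawn without pairing by replicate number. Changes as small as those of Cdh4 (0.34) and Pcdh8 (0.36) were not simulated, so their recovery is not known.

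Members and lists were chosen with earlier results of these data known. Per-library values are given for called members, those with an unadjusted p under 0.05 and a mean of at least 10, the catenins and the most abundant member of each role. Pcdh12, given beside Cdh5, and Pcdh19 fall outside this rule. The study's miRNA data were not used here.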

Additional observations from a re-analysis of the deposited data

Results flagged for a closer look

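Among 34 sets of 4 libraries screened for 1 library far from the other 3 (Dixon's 95% limit, which chance passes in about 1 of 20 sets), 2 stood out. Ctnna3 was at 23.7 normalized counts in WT replicate 2 and at 37.5 to 39.1 in the other WT libraries. Ctnnd2 was at 5576 normalized counts in L192P replicate 3 and at 5955 to 6021 in the other L192P libraries. Neither gene was called.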

How the results depend on the processing

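The count of members called, 2 by DESeq2 with genotype only, was 0 with edgeR and 0 with limma-voom, 1 without independent filtering (Pcdh8), and 0 to 2 when 1 library was left out. It was 0 when replicate 2 of either genotype, replicate 3 of L192P or replicate 4 of WT was left out, and Pcdh8 alone remained without L192P replicate 4 or WT replicate 3. With the replicate block 2 of 31 members with an adjusted p were called, where 533 of 12536 genes were (4.25%, 228 higher and 305 lower). In replicates 2 to 4 of both genotypes the count was 3 of 32 members. Over all genes the call count was 253 with DESeq2 (147 higher, 106 lower), 232 when scaled by total counts (168 higher, 64 lower), 500 in replicates 2 to 4 (238 higher, 262 lower), 55 with edgeR (42 higher, 13 lower) and 45 with limma-voom (38 higher, 7 lower). Partner genes called, 0 with genotype only, were 1 with the replicate block (Ret) and 0 to 2 when 1 library was left out: Cdhr1 and Tcf7l2 without L192P replicate 4 and Cdhr1 without WT replicate 4. The block changed no other call among members and partners. The median member log2 fold change kept its sign in all settings. In replicates 2 to 4 log2 fold changes near 0 turned negative for Ctnna2 (-0.0012), Ctnnd2 (-0.012), Pcdh1 (-0.0097) and Pcdh10 (-0.0096). With 1 library left out the log2 fold change crossed 0 for Cdh22 (-0.050 to 0.12), Ctnna1 (-0.035 to 0.077), Ctnnd2 (-0.0047 to 0.040), Pcdh1 (-0.019 to 0.047), Pcdh10 (-0.0090 to 0.051) and Pcdh20 (-0.12 to 0.19). The cause of these changes was not tested.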
